A study of Mus musculus with 9 samples.

Results

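Conventional type 1 dendritic cells (cDC1) of peri-pancreatic lymph nodes labelled Tumor were compared with those labelled Healthy across all genes. The comparison used 6 of the 9 RNA sequencing libraries of the series, 3 Tumor and 3 Healthy, chosen by the stage in their names. The remaining 3 libraries, labelled PanIN (pancreatic intraepithelial neoplasia, the precursor lesion), stayed in the fit to estimate the spread between libraries. The title of the series includes KPC, the name of a mouse model of pancreatic carcinoma. The labels give the cell type, the node and the stage, but no strain, age or number of animals per library, and no separate animals are named. The p-values therefore take in nothing beyond the spread from library to library, which may be technical.

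Dendritic cells in the pancreas take up dying cells, carry the antigen through lymph to the draining node and present it to T cells there. cDC1 are the dendritic cells best known for showing captured antigen to cytotoxic T cells. A lymph node holds both cDC1 that arrived from the tissue, which carry a maturation programme, and cDC1 that live in the node.

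Defining genes of cDC1 were abundant in all 6 libraries. Levels below are CPM, counts scaled to a common library size with TMM factors, and differences are log2 fold changes of Tumor over Healthy. Xcr1, the chemokine receptor that marks cDC1, stood at 411, 1081 and 312 CPM in Healthy 1, 2 and 3 and at 249, 620 and 384 CPM in Tumor 1, 2 and 3. Clec9a, the receptor for actin of dead cells, stood at 264, 669 and 177 CPM in Healthy and at 209, 380 and 396 in Tumor. The ranges overlapped for both genes and for Irf8, Flt3, Zbtb46 and Itgae, and the smallest adjusted p among these 6 was 0.401 (edgeR quasi-likelihood test, Benjamini-Hochberg adjustment). Batf3, a transcription factor needed for cDC1 to develop, stood at 84.3, 91.6 and 58.3 CPM in Healthy and at 140, 124 and 165 in Tumor, without overlap (adjusted p = 0.168).

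Depths were 32150281 to 68934430 estimated counts in Healthy and 36465371 to 46041617 in Tumor. The Healthy libraries stood further apart than the Tumor libraries. Ccr7, the receptor that guides mature dendritic cells into nodes, was at 57.2 CPM in Healthy 2, where the other Healthy libraries held 1266 and 419 and the Tumor libraries 1097 to 2602. In Healthy 3, mitochondrial ribosomal RNA took 2.77% of counts, and 7SL and 7SK RNA together took 2.12%. The other 5 libraries held 0.49% to 1.26% and 0.32% to 0.91%. The common biological coefficient of variation was 56.5%.

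Of 24133 genes tested, 13640 had a negative log2 fold change and 10493 a positive one, with a median of -0.11. With Benjamini-Hochberg adjustment the edgeR quasi-likelihood test called 2 genes lower (0.00829% of genes tested) and 4 higher (0.0166%). At an unadjusted p under 0.05, a looser mark used here as a description and not as a call, 2645 genes (11.0%) were lower and 1647 (6.82%) higher. The typical lower gene at that mark had the larger difference: the median size was 1.46 on the log2 scale among the lower genes and 1.02 among the higher ones. Counts by separation alone were nearly equal, with every Tumor library below every Healthy library in 2186 genes (9.06%) and above in 2177 (9.02%). Both conditions together, an unadjusted p under 0.05 and every Tumor library below, held for 1387 genes. DESeq2 called 934 genes lower (3.61% of 25886 tested) and 528 higher (2.04%).

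Both genes called lower were near-copies of other genes. Pgam1-ps2 (ENSMUSG00000082016, GRCm38 chr7:27469771-27470535, minus strand) is a processed pseudogene of Pgam1, the phosphoglycerate mutase of glycolysis. Its whole 765-base transcript occurs without a mismatch inside the 1775-base Pgam1 transcript, from base 126 to base 890, which spans the coding sequence and the stop codon. The first 60 bases of that stretch are printed for each gene from the GENCODE M21 transcripts, because they show what a sequencing read from either would look like. Capitals mark the start codon.

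Pgam1: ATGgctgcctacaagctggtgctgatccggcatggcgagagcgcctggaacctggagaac
Pgam1-ps2: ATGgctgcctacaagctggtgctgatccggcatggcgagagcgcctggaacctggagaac

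The authors' estimated counts of Pgam1-ps2 were 473, 1157 and 1756 for Healthy and 183, 580 and 872 for PanIN, and all 3 Tumor libraries held 0. Taking 3 counts over the Tumor group as a floor, it was at least 855-fold lower (adjusted p = 0.00386 by edgeR with Benjamini-Hochberg adjustment). Pgam1 itself held 5184, 10174 and 13039 counts in Healthy and 7936, 10130 and 6078 in Tumor. Summed over both genes the levels were 164, 297 and 180 CPM in Healthy and 207, 241 and 169 CPM in Tumor. The summed ranges overlapped, with a log2 fold change of -0.06 (adjusted p = 0.947 by edgeR with Benjamini-Hochberg adjustment).

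Zfp781 (ENSMUSG00000096718, chr10:81901911-81930480, minus strand), a zinc finger gene, was the other gene called lower. Its 4067-base transcript differs from that of the neighbouring copy Gm3055 at 4 positions, none of them in the coding sequence. Zfp781 held 107, 150 and 279 counts in Healthy and 0 in all 3 Tumor libraries, at least 135-fold lower on the same floor (adjusted p = 0.00933 by edgeR with Benjamini-Hochberg adjustment). Gm3055 held 16, 0 and 64 counts in Healthy and 142, 68 and 52 in Tumor. With these genes and another relative, BC024063, summed, the levels were 5.11, 4.91 and 5.12 CPM in Healthy and 4.61, 1.78 and 1.95 CPM in Tumor. The summed Tumor values all lay below the Healthy ones, but the sum was not called (log2 fold change -0.86, adjusted p = 0.332 by edgeR with Benjamini-Hochberg adjustment).

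Of the 4 genes called higher, Ugt1a9, a glucuronosyltransferase, shares part of its sequence with its neighbours. Of the 31-base words in its annotated transcripts, 67.8% recur in other genes, above all in Ugt1a10. Ugt1a9 held 0 counts in the Healthy and PanIN libraries and 543, 756 and 192 in Tumor. It was at least 656-fold higher with 3 counts over the Healthy group as the floor. All Ugt1a genes summed gave 38.7, 66.1 and 36.7 CPM in Healthy and 51.2, 57.1 and 47.6 CPM in Tumor, with overlap and a log2 fold change of 0.14 (adjusted p = 0.835 by edgeR with Benjamini-Hochberg adjustment). With these 3 families summed, a setting chosen after seeing the data, edgeR called 0 genes lower and 1 higher, Ifitm2, with 2645 lower and 1642 higher at an unadjusted p under 0.05. The plot of estimated counts in genes that share sequence shows how the counts divided.

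**Figure D1:**
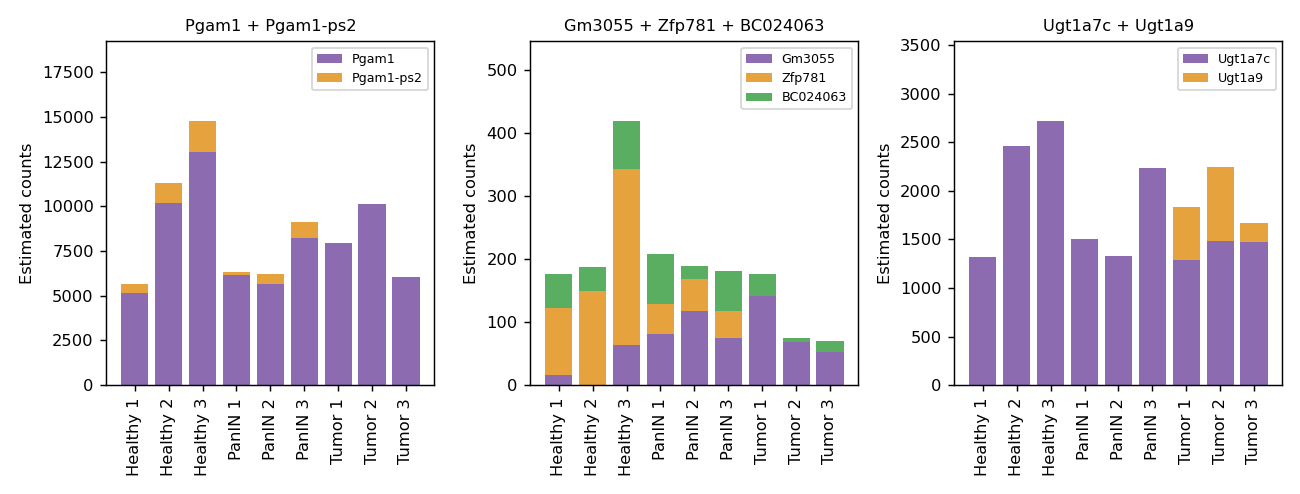
Estimated counts per library (vertical axis, linear) of 3 sets of genes that share sequence, stacked by gene; Ugt1a7c and Ugt1a9 are drawn as the most abundant Ugt1a gene and the called one. Pgam1-ps2 and Zfp781 are at 0 in the 3 Tumor libraries, and Ugt1a9 is above 0 in the Tumor libraries alone, while the other members of each set hold counts in Tumor.

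No other lower gene passed over all genes, and those with the smallest p-values and full separation came from several functions. The named genes below were protein-coding, had a mean of at least 1 log2 CPM, and were the 20 with the smallest p whose Tumor libraries all lay below the Healthy ones. Their log2 fold changes ran from -2.74 to -0.94. Their adjusted p-values by edgeR with Benjamini-Hochberg adjustment ran from 0.117 to 0.168, and by DESeq2 from 0.00013 to 0.014.

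Among genes of chromatin and the genome, Srcap, the ATPase that places the histone variant H2A.Z, stood at 82.9, 84.2 and 75.9 CPM in Healthy and at 29.7, 23.4 and 39.3 CPM in Tumor. The Healthy libraries lay close together and every Tumor library lay far below them (log2 fold change -1.39, SE 0.25, adjusted p = 0.126 by edgeR with Benjamini-Hochberg adjustment). Its PanIN libraries, at 67.6, 99.3 and 111 CPM, lay on both sides of the Healthy range, with PanIN 1 below it and the other two above. Atm, the kinase that signals DNA double-strand breaks, stood at 18.7, 28.6 and 20.6 CPM in Healthy and at 8.47, 7.82 and 9.82 in Tumor. Mdn1, an ATPase of ribosome assembly, stood at 47.5, 57.5 and 60.2 CPM against 30.6, 24.9 and 30.9. In both genes the Tumor libraries were tightly grouped below the lowest Healthy library. On log2(TPM + 0.1) Mdn1 went the other way, with a log2 fold change of 0.39.

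Among genes of membrane traffic and signalling, Vps13c, a lipid transfer protein at organelle contacts, had the smallest p of the 20. It stood at 49, 51.9 and 77.7 CPM in Healthy and at 22.9, 19.5 and 24.2 CPM in Tumor (log2 fold change -1.43, SE 0.23, adjusted p = 0.117 by edgeR with Benjamini-Hochberg adjustment). Its PanIN libraries lay between, at 39.3, 44.8 and 40.7 CPM. The sorting receptor Sorl1 stood at 153, 194 and 221 CPM in Healthy and at 95, 81.6 and 84.7 CPM in Tumor. Akap11, which anchors protein kinase A, stood at 91.6, 98.2 and 113 CPM against 42.9, 54.9 and 53.4 CPM. Adcy9, an adenylate cyclase, stood at 16.6, 13.6 and 23 CPM against 6.15, 5.06 and 5.76 CPM. For these 4 genes the lowest Healthy library held at least 1.5 times the level of the highest Tumor library.

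Among metabolic enzymes, Glul, the glutamine synthetase, stood at 208, 304 and 304 CPM in Healthy and at 129, 96.3 and 113 CPM in Tumor (log2 fold change -1.27, SE 0.24). Pdpr, the regulatory subunit of pyruvate dehydrogenase phosphatase, stood at 22.4, 32.9 and 25.1 CPM against 8.81, 7.65 and 11.4 CPM (log2 fold change -1.53, SE 0.27). Gpt2, the mitochondrial alanine aminotransferase, stood at 14.4, 19.3 and 23.2 CPM against 8.32, 6.94 and 8.54 CPM. All 3 enzymes had tightly grouped Tumor libraries. PanIN values of Glul, at 161, 141 and 120 CPM, lay below every Healthy library and partly within the Tumor range.

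Of the transporters and channels, the sodium-calcium exchanger Slc8a1 stood at 29.7, 44.5 and 60.8 CPM in Healthy and at 15.6, 19.6 and 15.2 CPM in Tumor. The zinc importer Slc39a10 stood at 32.3, 36.7 and 43.3 CPM against 20.5, 18.8 and 14.9 CPM. The cation channel Trpc6 was low throughout, at 3.95, 1.47 and 5.1 CPM against 0.574, 0.546 and 0.445 CPM. The same separation held for the adhesion genes Tns1 and Ctnnd1, where it was -1.72 (SE 0.35) and -1.08 (SE 0.24) on the log2 scale, and for Ndrg3, Slfn3, Xylt1, Enpp5 and Hivep3, with log2 fold changes from -1.98 to -1.03. The plot of the lowest genes by library shows the 20 beside the 10 with the largest fall.

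**Figure D2:**
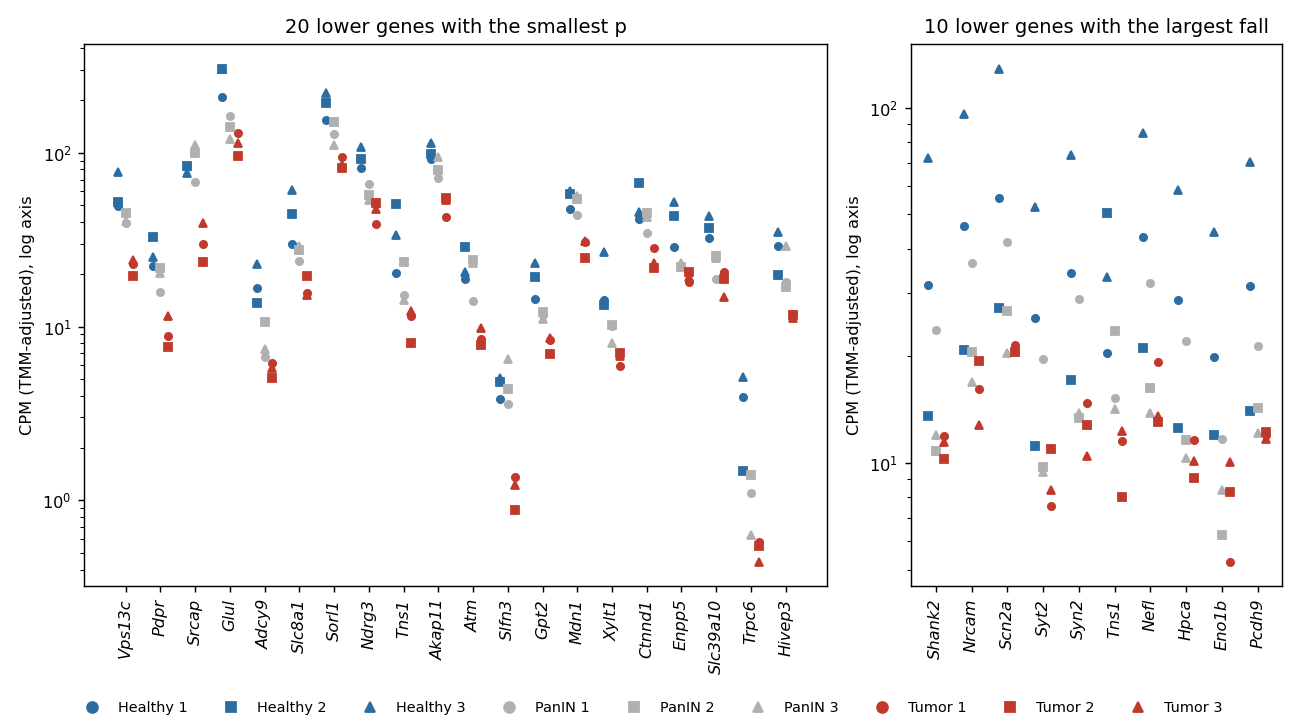
CPM on a log axis for the 20 lower genes with the smallest p (left) and the 10 lower genes with the largest fall among those at a mean of at least 4 log2 CPM (right); each point is 1 library, coloured by group and shaped by library number. On the left the 3 Healthy libraries lie within 1.5-fold of each other in 9 of the 20 genes, while on the right, apart from Tns1, Healthy 3 is highest, Healthy 1 next and Healthy 2 just above the Tumor libraries.

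The genes with the largest falls were not among those 20, except for Tns1. The 10 largest among separated genes at an unadjusted p under 0.05 and a mean of at least 4 log2 CPM were Shank2, Nrcam, Scn2a, Syt2, Syn2, Tns1, Nefl, Hpca, Eno1b and Pcdh9. Apart from Tns1 and Eno1b, a copy of the glycolytic enolase gene, they are best known from neurons: Shank2 is a scaffold of synapses, Scn2a a sodium channel, Syt2 and Syn2 proteins of synaptic vesicles, Nefl a neurofilament and Hpca a calcium sensor. Shank2 stood at 31.7, 13.5 and 72.1 CPM in Healthy and at 11.9, 10.3 and 11.4 CPM in Tumor (log2 fold change -1.80, SE 0.50, adjusted p = 0.168 by edgeR with Benjamini-Hochberg adjustment). Scn2a stood at 55.5, 27.2 and 129 CPM in Healthy and at 21.4, 20.5 and 21 CPM in Tumor. Nefl stood at 43.2, 21 and 84.9 CPM against 19.2, 13 and 13.5 CPM. In each of them Healthy 3 was highest and Healthy 2 lay only slightly above the Tumor libraries.

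Transcripts best known from neurons and glia were measured in every library of the series, and most kept nearly the same proportions to each other. A list of 33 such genes, among them Snap25, Grin1, Camk2a, Gfap and Mag, was drawn up once the data had been seen, so its direction is no independent evidence. Its summed level was 2386, 1086 and 4914 CPM in Healthy, 1772, 1002 and 875 CPM for PanIN, and 1127, 969 and 911 CPM for Tumor. Healthy 3 was highest, Healthy 1 and then PanIN 1 followed, and Healthy 2 lay within the Tumor range. Gene by gene, Healthy 3 exceeded Healthy 1 by a median of 2.07-fold, with quartiles of 1.97 and 2.16 over the 33 genes. Healthy 2 exceeded the Tumor mean by a median of 1.10-fold, with quartiles of 1.02 and 1.23. Eno2 and Thy1, not on that list, did not keep these proportions. On the log2 scale they differed by 0.02 and 0.24 between Tumor 1 and Healthy 1. Between the other Tumor and Healthy libraries they differed by 0.22 and -0.91.

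Neuronal and glial members moved alike. Snap25, a protein of synaptic vesicle fusion, stood at 151, 75.4 and 318 CPM in Healthy and at 75.7, 64.9 and 55.7 CPM in Tumor. Gfap, the filament of astrocytes, stood at 16.1, 6.53 and 38.5 CPM against 8.11, 5.84 and 6.07 CPM. For both genes Healthy 2 lay inside the Tumor range. The median of the 33 genes was -1.49, and it was -0.06 once Healthy 1 and 3 were both left out (added after the data had been seen). A further list, of transcripts of single brain regions, was also drawn up after the data had been seen. All of its 16 tested genes had a negative log2 fold change. At an unadjusted p under 0.05, 9 of the 16 were lower (56.25%, against 11.0% of all genes). Over the 9 libraries, 9 of the 16 had a Pearson r above 0.9 with the log2 sum of the 33 genes, against 7.88% of all genes. Among the 16, the cerebellar Cbln1 stood at 8.98, 5.14 and 24.7 CPM against 3.7, 3.21 and 4.67 CPM. Ttr, abundant in choroid plexus, stood at 31.4, 13.4 and 58.8 CPM against 17.8, 10.7 and 12 CPM. In the 9 libraries, mitochondrial ribosomal RNA was also highest in Healthy 3, then in Healthy 1, then in PanIN 1. The sum of 7SL and 7SK RNA was highest in the same libraries in that order, as the plot of the neural sum by library shows. The part of either in the differences was not tested. The source of the neuronal and glial transcripts was not tested either. For any gene in bulk libraries of this kind, fewer cells of a type and less RNA per cell cannot be told apart.

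**Figure D3:**
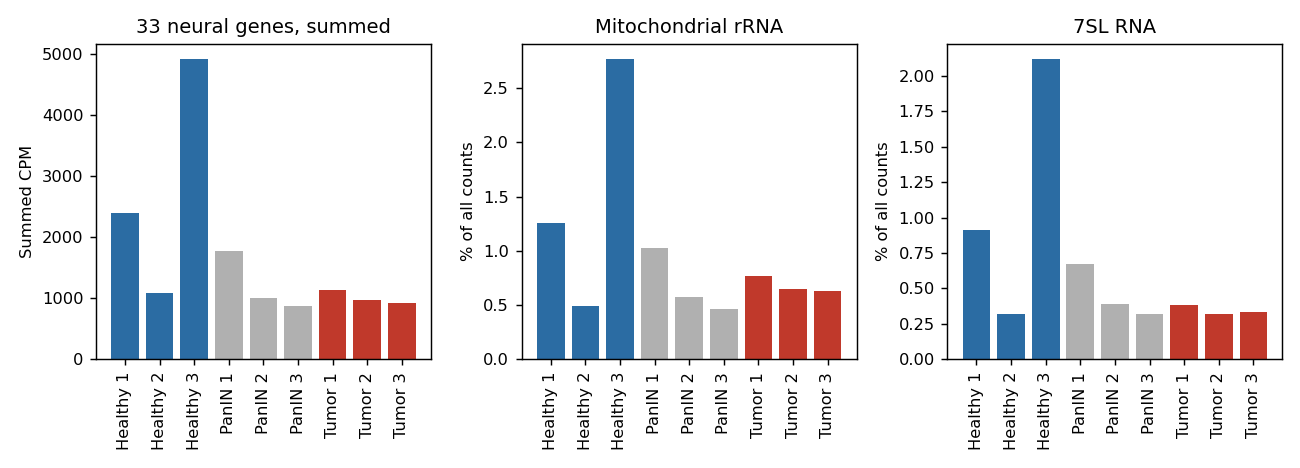
Summed CPM of 33 genes best known from neurons and glia (left), for each of the 9 libraries. The other panels show the share of all counts in mitochondrial ribosomal RNA (middle) and in 7SL and 7SK RNA together (right, titled 7SL RNA). All vertical axes are linear. Healthy 3, Healthy 1 and PanIN 1 are the 3 highest in each panel, and Healthy 2, at 1086 CPM in the left panel, lies between the Tumor libraries.

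The same order of libraries ran through much of the lower set. Over the 9 libraries, 1367 of the 2612 lower genes outside that list (52.3%) had a Pearson r above 0.9 with the log2 neural sum, against 7.76% of all 24100 tested genes outside it and 0 of the 1647 higher genes. The mirror image was small, with an r below -0.9 in 43 higher genes (2.61%). These are descriptions over 9 libraries that share depth and scaling. All 33 genes of the sum were themselves lower at an unadjusted p under 0.05, and the libraries behind r include those of the fold change. Lower genes are therefore drawn toward a positive r, and a higher gene could hardly reach 0.9. The contrast between lower and higher genes is thus no independent evidence. Healthy 3 was the highest Healthy library in 84.2% of the 2645 lower genes and in 43.1% of all genes tested. Of the 20 genes with the smallest p, 0 had an r above 0.9, but their median r was 0.65. The median r was 0.01 for all tested genes outside the list. Healthy 3 was the highest Healthy library in 14 of the 20. Of the 10 genes with the largest fall, 9 had an r above 0.9. In 1152 of the 2645, Healthy 2 did not exceed the highest Tumor library, against 76 for Healthy 1 and 46 for Healthy 3. The plot of fold change against r places the lower genes in a dense group at the right edge and a looser band to its left.

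**Figure D4:**
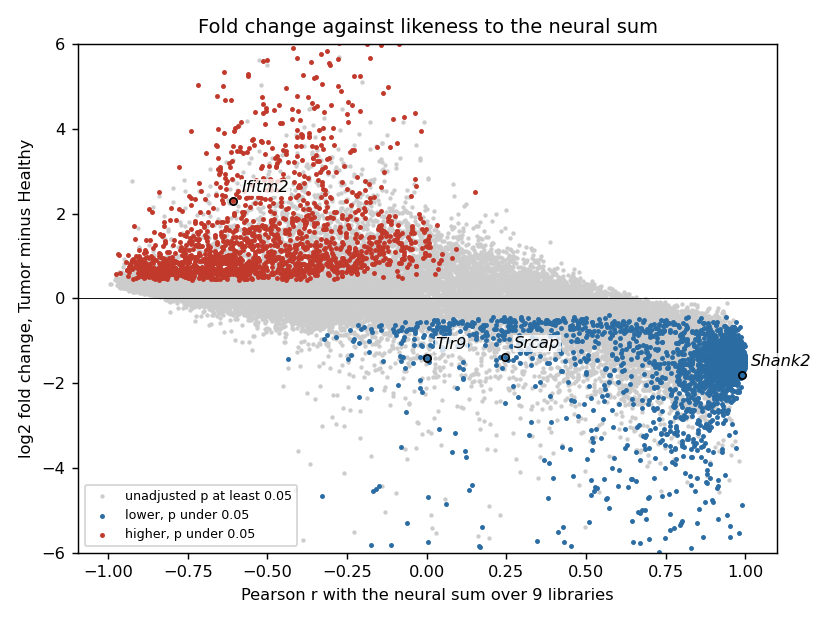
Each point is 1 of 24133 genes: Pearson r with the log2 neural sum over 9 libraries (horizontal) against the log2 fold change of Tumor over Healthy (vertical), coloured by direction at an unadjusted p under 0.05; 159 genes lie beyond the vertical axis limits of 6. Lower genes crowd near an r of 1, where Shank2 lies, while Srcap (r of 0.25) and Tlr9 (r of 0) are lower without following the sum.

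How far the lower genes outnumbered the higher ones differed between settings. With all genes of an r above 0.9 left out and the rest refitted, a setting chosen after seeing the data, 1556 genes were lower and 1573 higher at an unadjusted p under 0.05. Since 0 of the higher genes had such an r, that step could take away lower genes alone, and its count is a description of how many they were. Leaving out Healthy 3 gave 1225 lower and 1375 higher, and leaving out Healthy 2 gave 4061 and 2960. On log2(TPM + 1) with limma-trend they were 1598 and 1517. With the neural sum as a term in the model, also chosen after seeing the data, edgeR with Benjamini-Hochberg adjustment called 404 genes lower (1.67% of genes tested) and 144 higher (0.597%). Of the Healthy libraries, Healthy 2 alone had a neural sum within the Tumor range. Results with that term therefore lean on Healthy 2 and are no separate support. Srcap (adjusted p = 0.0315), Pdpr (0.0214), Atm (0.0262), Vps13c (0.0333) and Glul (0.0428) were among the 404 in that edgeR fit, and Shank2 was not (adjusted p = 0.75, log2 fold change -0.15). Of the lower genes with an r of at most 0.9, 1245 in all, 921 had every Tumor library below every Healthy one and 128 were called with that term. Such separation was found in 9.06% of all genes tested and in 1387 of all 2645 lower genes. The 1245 were chosen by p in these same libraries, so frequent separation among them is no independent evidence.

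Another set of lower genes was highest in Healthy 2, the library with the least Ccr7. Among the 1387 separated lower genes, 107 had Healthy 2 more than 1.5 times above both other Healthy libraries, and in 240 the 3 Healthy libraries lay within 1.5-fold of each other. Of the 20 genes with the smallest p, 9 were of the second kind, Srcap, Pdpr, Glul, Sorl1, Ndrg3, Akap11, Slfn3, Mdn1 and Slc39a10. The 107 included receptors and enzymes of innate sensing and uptake. Tlr9, the endosomal sensor of unmethylated DNA, stood at 65.2, 139 and 64.4 CPM in Healthy and at 24.7, 39.4 and 37.7 CPM in Tumor (log2 fold change -1.40, SE 0.36). Tlr12, a sensor of parasite profilin, stood at 84.7, 174 and 78.1 CPM against 30.4, 62.2 and 53.5 CPM (log2 fold change -1.20, SE 0.37). Without overlap in either gene, Healthy 1 and 3 lay about equally far above the Tumor libraries and Healthy 2 further still. Their adjusted p-values were 0.168 in the edgeR fit and 0.0162 and 0.0332 with the neural term, both with Benjamini-Hochberg adjustment. The fit with the neural term leans on Healthy 2, where both genes were highest. Over the whole list of 36 pattern recognition receptors and adaptors, 2 were lower and 5 higher at an unadjusted p under 0.05, with a median of 0.07, where the shares over all genes were 11.0% and 6.82% and the median -0.11. With the neural term the list's median was -0.35, and 5 of the 36 were called lower and 0 higher.

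Markers of monocytes and macrophages leaned lower, with 16 of 18 negative and a median of -0.37, against -0.11 for all genes tested. At an unadjusted p under 0.05, 5 of the 18 were lower and 0 higher, where the shares over all genes were 11.0% and 6.82%. Ccr2, a chemokine receptor of monocytes, stood at 136, 277 and 163 CPM in Healthy and at 42.7, 107 and 45.9 CPM in Tumor (log2 fold change -1.56, SE 0.40, adjusted p = 0.168 by edgeR with Benjamini-Hochberg adjustment). Lyz2, the lysozyme of myeloid cells, stood at 120, 260 and 115 CPM against 87.6, 79.6 and 58.7 CPM. Siglec1, a receptor of node macrophages, was near the lower end of detection, at 1.28, 3.02 and 0.805 CPM against 0.652, 0.38 and 0.306 CPM. All 3 genes were separated, with Healthy 2 highest. The summed level of the list was 515, 824 and 592 CPM in Healthy and 380, 405 and 311 in Tumor, also separated. Its median was 0.21 with the neural term, 0.37 without both Healthy 1 and Healthy 3, and 0.01 within the shared title code described below. Whether other cells contributed these transcripts was not tested.

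Genes of dead-cell uptake, receptors and others, also leaned lower. Of 35 tested, 25 were negative, with a median of -0.39. There were 7 of 35 lower (against 11.0% of all genes) and 1 higher (2.86%, against 6.82%) at that unadjusted p. An r above 0.9 with the neural sum was found in 6 of the 35 (17.1%, against 7.88% of all genes). Lrp1, a large endocytic receptor, stood at 149, 70.8 and 294 CPM in Healthy and at 71.4, 60 and 56.1 CPM in Tumor, so that Healthy 2 lay within the Tumor range. Adgrb1 and Tyro3, which bind phosphatidylserine directly or through a bridging protein, had the same order of libraries. Cd36, a scavenger receptor of cDC1, had another, at 188, 519 and 165 CPM against 111, 197 and 143 CPM, and its ranges overlapped. The list's median was 0.23 with the neural term, so its direction depended on that term. It was also positive, at 0.30, without both Healthy 1 and Healthy 3. Within the cDC1 surface list Cd207, langerin, stood at 3.72, 36.4 and 3.49 CPM against 1.96, 2.3 and 4.4 CPM, with Healthy 2 far above the rest. Of the 26 genes of that list 2 were lower (7.69%, against 11.0% of all genes) and 0 higher (against 6.82%) at an unadjusted p under 0.05, with a median of -0.07. That median had no stable direction: it was 0.45 without Healthy 2, -0.79 without both Healthy 1 and 3, and -0.97 with the neural term, where 5 genes were called lower and 0 higher.

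In the lysosome list of 52 genes, 5 were lower (9.62%, near the 11.0% of all genes) and 7 higher (13.5%, against 6.82%) at an unadjusted p under 0.05. Its median was 0.09, and -0.23 with the neural term. Arsb, which removes sulfate from glycosaminoglycans, stood at 225, 655 and 228 CPM in Healthy and at 87.5, 175 and 161 CPM in Tumor. Igf2r, which carries enzymes to lysosomes, stood at 50.9, 106 and 50.3 CPM against 26.2, 37 and 36.8 CPM. Both were separated and highest in Healthy 2. The protease Ctse differed widely within Healthy, at 6.13, 209 and 77.9 CPM in Healthy against 27.4, 6.46 and 4.62 CPM in Tumor. On the higher side, the protease Ctsz stood at 528, 431 and 356 CPM against 987, 704 and 779 CPM.

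Among genes of integrins and adhesion, 2 of 35 were lower (5.71%, below the 11.0% of all genes) and 4 higher (11.4%, against 6.82%) at an unadjusted p under 0.05. Itga1, a collagen-binding integrin chain, stood at 14.5, 30.5 and 21.2 CPM in Healthy and at 7.61, 11 and 9.49 CPM in Tumor. Itgal, a chain of the integrin LFA-1, stood at 162, 385 and 119 CPM against 106, 133 and 114 CPM, with overlap. Both were called with the neural term (adjusted p = 0.0339 and 0.0146 by edgeR with Benjamini-Hochberg adjustment). That fit leans on Healthy 2, where both genes were highest.

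Motor proteins of the cytoskeleton leaned lower. Of 87 myosins, kinesins and dyneins, 62 were negative, with a median of -0.33, against -0.11 over all genes. At an unadjusted p under 0.05, 17 were lower (19.5%, against 11.0% of all genes) and 3 higher (3.45%, against 6.82%). Of the 87, 16 had an r above 0.9 with the neural sum (18.4%, against 7.88% of all genes). Kif5a, a kinesin of axonal transport, stood at 205, 110 and 418 CPM in Healthy and at 97.3, 95 and 81.4 CPM in Tumor. Myo6, the myosin that moves toward the minus end of actin, did not share that order, at 26.9, 34.9 and 40.2 CPM against 12.7, 20.9 and 16.8 CPM. On log2(TPM + 1) the median of the list was closer to 0, at -0.07, and without both Healthy 1 and 3 it was -0.01. The higher members included Myo1g, a myosin of blood cells, at 568, 347 and 272 CPM against 845, 569 and 982 CPM.

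Among 372 tested C2H2 zinc finger genes the lower share was near that of all genes: 46 were lower (12.4%, against 11.0%) and 13 higher (3.49%, against 6.82%) at an unadjusted p under 0.05, with a median of -0.14. Of 28 nuclear receptors, 10 were lower (35.7%) and 5 higher (17.9%), both above those shares over all genes, with a median of -0.24. An r above 0.9 with the neural sum was found in 5 of the 28 (17.9%, against 7.88% of all genes). With the neural term their median was -0.12, and 2 were called lower and 0 higher. Nr1d2, a repressor of the circadian clock, stood at 25.1, 21.5 and 34.8 CPM in Healthy and at 15.5, 10.5 and 14.1 CPM in Tumor. Thra, a thyroid hormone receptor, stood at 47.9, 24 and 86.4 CPM against 23.4, 19.2 and 18.5 CPM, in the order of the neural transcripts. The higher nuclear receptors included Nr4a3, induced by receptor signalling, at 55.1, 18.5 and 30.9 CPM against 87.3, 64.8 and 87.5 CPM.

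In the DNA repair list, 4 of 46 genes were lower (8.70%, below the 11.0% of all genes) and 0 higher (against 6.82%) at an unadjusted p under 0.05, with a median of -0.07 and 0 genes above an r of 0.9. Besides Atm they were Rev3l, a translesion polymerase, Trp53bp1 and Rif1. Rev3l stood at 39.4, 43.2 and 39.8 CPM in Healthy and at 20.5, 25.7 and 26.8 CPM in Tumor, and all 4 genes were separated. The list's median was 0.14 without Healthy 2 and -0.41 with the neural term, where 5 genes were called lower and 0 higher. On log2(TPM + 0.1) the log2 fold change of Rev3l was 0.05. The tumor suppressor Trp53 stood at 85.5, 156 and 69.7 CPM against 47.9, 55.9 and 47.3 CPM (log2 fold change -1.04, SE 0.33, adjusted p = 0.168 by edgeR with Benjamini-Hochberg adjustment). It was separated too, while the apoptosis list that holds it leaned higher, with 37 of 43 members positive and a median of 0.44.

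Genes of fatty acid and sterol synthesis split. Of 36 tested, 6 were lower (16.7%, against 11.0% of all genes) and 4 higher (11.1%, against 6.82%) at an unadjusted p under 0.05, with a median of 0.01. Fasn, the fatty acid synthase, stood at 146, 265 and 196 CPM in Healthy and at 85, 110 and 98.1 CPM in Tumor (log2 fold change -1.05, SE 0.26). Acaca, which makes its substrate malonyl-CoA, stood at 50.5, 65.5 and 60 CPM against 31.4, 37.2 and 45.4 CPM, and Acss2, which makes acetyl-CoA from acetate, had a log2 fold change of -0.72 (SE 0.25). All 3 were separated. On log2(TPM + 1) the log2 fold change of Fasn was 0.01. The sterol genes Tm7sf2 and Pmvk were on the higher side, the first with a log2 fold change of 1.32 (SE 0.44), the other with 0.61 (SE 0.23). Among glycolysis and hypoxia genes the lower members Aldoc and Pfkm had an r of 0.93 and 0.98 with the neural sum, and the higher member Ndrg1 stood at 85, 57 and 59.4 CPM against 210, 136 and 155 CPM.

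Long transcripts were lower more often than short ones. Among protein-coding genes tested, split in 5 equal bins by the longest annotated transcript, the share lower at an unadjusted p under 0.05 was greater in each longer bin, from 4.85% (up to 1983 bases) to 27.3% (at least 5299 bases), while the share higher went from 11.1% down to 3.19%. The median log2 fold change went from 0.17 to -0.39. With genes of an r above 0.8 left out, the lower share still went from 1.91% to 10.3% and the higher share from 11.8% to 4.48%. The median longest transcript was 4222 bases among the lower genes, 2296 among the higher ones and 2779 over all genes tested. Over 5 bins of GC content the lower share showed no such run and lay between 11.3% and 14.8%. By level it was highest in the bin next to the lowest, at 22.5%, and smallest in the bin of the most abundant genes, at 4.88%. That order by level did not hold otherwise: the first of these bins was at 4.79% with genes of an r above 0.8 left out, and with the neural term the share was 5.34% there and 29.6% in the bin of the most abundant genes. By length the share with the neural term went from 6.57% to 22.2%. The cause of the length relation was not tested.

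**Figure D5:**
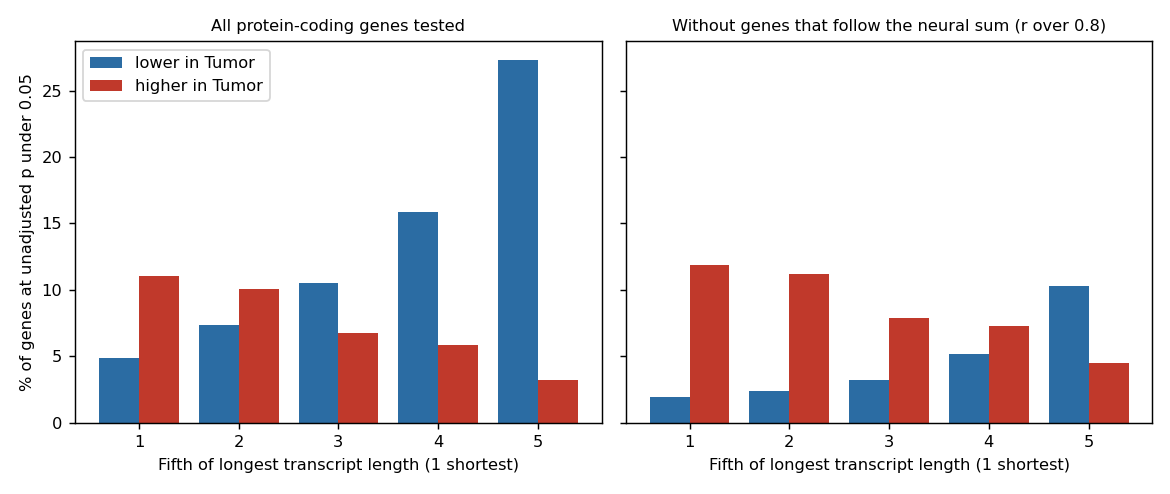
Share of protein-coding genes lower (blue) or higher (red) in Tumor at an unadjusted p under 0.05, by bin of longest transcript length, for all tested genes (left) and for genes with an r of at most 0.8 with the neural sum (right). Bars start at 0; in both panels the lower share rises and the higher share falls from the shortest to the longest bin.

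On the higher side, 1 of the 4 called genes was Ifitm2 and the others were Ugt1a9, Gm26669 and Igkv8-21. Ifitm2, an antiviral membrane protein, rose from 16.7, 16.5 and 18.3 CPM in Healthy to 99.5, 93.5 and 58.9 in Tumor (log2 fold change 2.29, SE 0.27, adjusted p = 0.0133 by edgeR with Benjamini-Hochberg adjustment). The call of Ifitm2 was lost when Tumor 1 or Tumor 2 was left out. Of the 31-base words in its annotated transcripts, 55.5% occur in other genes too, so its counts are uncertain. Gm26669, a long noncoding RNA, rose from 11.7, 10.4 and 7.19 to 50, 49.7 and 45.1 CPM (adjusted p = 0.0438 by edgeR with Benjamini-Hochberg adjustment), and the immunoglobulin segment Igkv8-21 from at most 0.488 CPM to 31.7, 40.8 and 3.51 CPM (adjusted p = 0.0323 by edgeR with Benjamini-Hochberg adjustment). Gpr137b, a lysosomal membrane protein, stood at 55.2, 31.2 and 34.7 CPM against 135, 100 and 136 CPM, and Plscr1, a phospholipid scramblase induced by interferon, at 42.7, 42.5 and 25.4 CPM against 127, 100 and 81.4 CPM. Neither passed over all genes (adjusted p = 0.102 and 0.123 by edgeR with Benjamini-Hochberg adjustment). The plasma cell list, whose summed level was 260, 272 and 166 CPM in Healthy and 2750, 1062 and 268 in Tumor, moved with Igkv8-21, and its part was not tested. Of 25 genes of MHC class I and peptide loading, 9 were higher at an unadjusted p under 0.05 and 0 lower, and of 39 proteasome genes 6 and 0, where the shares over all genes were 6.82% and 11.0%. Of 44 genes of the type I interferon response, 13 were higher (29.5%) and 0 lower, with a median of 0.39 that was -0.07 with the neural term. All 30 genes of dendritic cell maturation were positive, with a median of 1.33, and 19 were higher (63.3%) and 0 lower. Their summed level was 16553, 2733 and 8578 CPM in Healthy and 26838, 15673 and 20643 in Tumor, with overlap. All 33 NF-kB and TNF genes were positive, with a median of 0.95, and 22 were higher (66.7%) and 0 lower. Over the alternative settings these medians ran from 0.63 to 3.10 and from 0.37 to 1.18.

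One title code was shared by Healthy 1, PanIN 1 and Tumor 1. Between Tumor 1 and Healthy 1 alone, with no replicates, 2613 of the 2645 lower genes had a negative log2 difference, with a median of -0.89, and 10 of the 1647 higher genes were negative. These libraries were part of the choice of those genes, so this direction is not independent. Within the code Srcap differed by -1.46, Atm by -1.10, Tlr9 by -1.39 and Shank2 by -1.38 on the log2 scale. Among the other 4 libraries the differences were -1.38, -1.42, -1.28 and -1.49. With 3 libraries against 3 an exact permutation test of a single gene cannot give a two-sided p below 0.1.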

How the data were processed

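RNA of cDC1 was sequenced in 9 libraries, 3 per stage. For each transcript the authors deposited an estimated count and a TPM. The submitters' processing notes list Salmon and mm10, while the deposited files are named for sailfish, so the tool is uncertain. Version and strand setting: not given in the sources used here. Transcript quantification divides reads among similar transcripts by a model, so values of near-copies are uncertain.

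Of 136288 transcripts, 136176 were matched by identifier to GENCODE M21 (GRCm38) and summed to 53458 genes, rounded. No deposited column was left unmapped. Genes passing filterByExpr (minimum count 10, total 15) were tested with edgeR 4.0.16 in R 4.3.3: quasi-likelihood fit over 9 libraries, TMM factors from 0.83 to 1.19, Benjamini-Hochberg threshold 0.05. SE is the log2 fold change over the root of its F. The deposited TPM, taken as log2(TPM + 1) and log2(TPM + 0.1), were tested with limma 3.58.1. DESeq2 1.42.0, other scaling and filters, fewer libraries and a term for the shared title code were alternatives. Python 3.11.15, pandas 2.3.3 and matplotlib 3.10.9 gave the tables and figures.

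Members, gene lists and tests were chosen with earlier results of these data known; 4 lists of neural transcripts and 5 alternatives were added after seeing the data. The rule for named genes took 20 lower genes by p, 10 by fall, 8 higher by p, up to 4 lower and 2 higher members of each of 61 lists, all called genes and 7 cDC1 genes; not all are printed. The neural sum is the log2 summed CPM of 33 genes; r used log2(CPM + 0.5). Tested on simulated counts of this comparison over 24133 genes, 200 of them changed, the edgeR fit called 4.5% of genes changed 2-fold, 70.1% of those changed 4-fold, 90.9% of those changed 8-fold and 9 unchanged genes. The changed genes were drawn from those at a mean of at least 1 log2 CPM. Each gene was simulated alone, without the differences between libraries that many genes share here, so these rates may not hold for the real counts. Counting floors cover counting error only.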

Additional observations from a re-analysis of the deposited data

How the results depend on the processing

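The 2 lower and 4 higher calls moved with the tool and the libraries. Lower and higher calls numbered 934 and 528 by DESeq2, 1233 and 753 by limma-voom with sample weights, and 680 and 361 with no filter on low counts. The limma-voom weights were 4.32 for Healthy 1, 0.17 for Healthy 2 and 0.27 for Healthy 3. In that fit the Healthy group therefore rests mostly on Healthy 1. Lower calls were 5 on log2(TPM + 0.1), 6 on log2(TPM + 1), 5 with only the 6 libraries compared and 1 with protein-coding genes alone. Higher calls were 1 at 50 counts in 3 libraries, 1 with protein-coding genes alone, 1 outside the shared title code and 2 with upper-quartile factors. Of the settings chosen after seeing the data, the neural term gave 404 and 144, leaving out genes that follow the neural sum gave 5 lower, summing genes that share sequence gave 0 and 1, leaving out Healthy 1 and 3 gave 169 and 488, and leaving out Healthy 2 and 3 gave 1 lower. Leaving out 1 library gave 2 to 1681 lower calls and 0 to 496 higher ones, both highest without Healthy 2.

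At an unadjusted p under 0.05, lower genes numbered 1556 without genes that follow the neural sum, 1582 outside the shared title code, 1669 on log2(TPM + 0.1), 1598 on log2(TPM + 1) and 1742 without Healthy 2 and 3. Higher genes numbered 2987 by limma-voom, 3170 without Healthy 1 and 3 and 1028 without Healthy 2 and 3. Leaving out 1 library gave 1225 (without Healthy 3) to 4061 (without Healthy 2) lower genes and 1027 (without Tumor 1) to 2960 (without Healthy 2) higher ones. Lower genes were 61.6% of both together in the edgeR fit, 51.3% on log2(TPM + 1), 49.7% without genes that follow the neural sum, 47.1% without Healthy 3 and 39.3% without Healthy 1 and 3, the last with a median over all genes of 0.23.

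With fewer libraries separation is met more easily: every Tumor library lay below in 4186 genes and above in 4065 outside the shared title code, in 7630 and 8487 without Healthy 1 and 3, in 8583 and 6795 without Healthy 2 and 3, and with 1 library left out in 2271 to 6468 and 2181 to 5046.

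Over 26 alternatives, of 9668 values of 376 named genes 9045 kept their side of the threshold, 584 passed it, 39 lost a call and 0 changed sign across a call. The 2 lower and 4 higher called genes alone could lose a call. All other named genes began without one, so the 9045 are mostly genes that stayed uncalled and are no measure of stability. A change of sign without a call, as for Mdn1 on log2(TPM + 0.1), is not in these counts. Ifitm2, Ugt1a9, Gm26669 and Igkv8-21 lost their calls without Healthy 3, Tumor 1 or Tumor 2, and Zfp781 with only the 6 libraries compared; adjusted p-values of Srcap ranged from 0.0011 to 0.42. Apart from added terms, causes were not tested. No paired analysis was possible because the labels carry no replicate numbers and the groups share 1 title code only; a term for that code gave 3 lower and 6 higher calls. At this size and spread most 2-fold changes would be missed.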
